A study of Chlorocebus aethiops with 36 samples.

Results

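The enzymes that make serine, glycine and creatine were followed in the livers of 12 African green monkeys, all male, by repeated biopsy. The set held 10 genes of the 19775 that the array names, taken by symbol: PSAT1, PHGDH and PSPH of serine synthesis, SHMT1, SHMT2 and GLDC of serine and glycine interconversion and glycine cleavage, GATM and GAMT of creatine synthesis, GNMT of glycine methylation, and ASNS of asparagine synthesis. Every probe set annotated with one of these symbols and no other was used, which gave 26 of 54675 probe sets. A further 3 probe sets that name a member together with other genes were left out. The genes were chosen by pathway and with earlier results of these arrays in view, that is, with the log2 values over arm and time that are described here, though which of those values counted is not recorded. Its changes over time are therefore descriptions: limma's call at an adjusted p under 0.05 is stated for each, so that it can be set beside the share called among all probe sets, and supports nothing further. The differences between treatment arms went through the same fit. Values by arm may also have counted in the choice, so the p-values of these differences are likewise set beside the share of all probe sets.

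There were 36 arrays in 6 groups of 6. The control group received a control anti-miR, a synthetic oligonucleotide, and the treated group received anti-miR-33, which binds and blocks the microRNA miR-33. Both were injected under the skin at 5 mg/kg, repeatedly until week 12. Each animal was biopsied at week -5 (baseline, on chow and untreated), at week 4 while still eating chow, and at week 12. For the last 8 weeks the food was rich in carbohydrate with moderate cholesterol. The arm of a baseline array is that of the same animal at the later times. Since both arms received an oligonucleotide and both changed diet, there is no untreated or chow-fed group at the later times. The change from week 4 to week 12 thus holds the diet, longer treatment and time together. The array names in the labels form one series for baseline and week 12 and another for week 4, so week 4 and that array series cannot be told apart.

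Serine is made from a glycolytic intermediate in a chain of reactions. PHGDH oxidises 3-phosphoglycerate, PSAT1 adds the amino group, and PSPH removes the phosphate. SHMT1 in the cytosol and SHMT2 in mitochondria convert serine to glycine and hand a carbon unit to folate, and GLDC is the decarboxylase of the mitochondrial glycine cleavage system. GATM joins arginine and glycine to guanidinoacetate, which GAMT methylates to creatine, and GNMT methylates glycine to sarcosine; both methyl groups come from S-adenosylmethionine, which the liver makes in large amounts. ASNS makes asparagine from aspartate. The transcription factor ATF4 is known to drive PHGDH, PSAT1, PSPH and ASNS when amino acids run short or the endoplasmic reticulum is stressed.

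Values are log2 expression, and each probe set is compared only with itself, because probes designed on human transcripts bind monkey transcripts unequally well. As a check of the tissue, 15 hepatocyte markers had a mean of 12.07 ± 0.05 (SD, n = 12) at baseline, and their means at the later biopsies were 12.03 ± 0.07 (week 4) and 12.09 ± 0.17 (week 12). A value that moved with time was the gap between the 3′ and the 5′ control probe sets of GAPDH and ACTB, in which a wide gap is usually read as degraded RNA. Averaged over both genes this gap started at 2.57 ± 0.43 (SD, n = 12), stood at 1.94 ± 0.41 by week 4 and 1.83 ± 0.16 by week 12, and was narrower at week 12 than at baseline in 11 of 12 animals. It is called the 3′-5′ value below, and the changes of the members are given again with it as a covariate. Between week 4 and week 12 the controls moved in opposite directions, to the same level. GAPDH went from 2.24 ± 0.40 to 1.83 ± 0.14 and ACTB from 1.65 ± 0.44 to 1.83 ± 0.20. At baseline both stood at 2.57. The average therefore moved little from week 4 to week 12, and GAPDH and ACTB were also entered as 2 covariates. Their values lay well apart only at week 4, so the 2 together nearly mark week 4. A call lost with them in an interval that includes week 4 therefore says little about the change. The week 12 array of control replicate 5 stood apart with a hepatocyte mean of 11.60, and the week 4 array of control replicate 1 carried the diet label of week 12. Without either array, all 126 differences computed for the member probe sets kept their direction and their side of the threshold. All 8 endothelial markers tested also fell, from a range of 6.81 to 7.60 at baseline to 6.22 to 7.15 at week 4 and 6.11 to 6.73 at week 12 (mean of the list per array). In the 3 intervals (baseline to week 4, week 4 to week 12, baseline to week 12) 3, 1 and 3 of 7 stellate markers fell and 0 rose, and of 9 macrophage markers 5, 1 and 3 fell and 0, 1 and 0 rose. Of all tested genes, 20.6%, 13.5% and 16.2% were called lower in these intervals and 15%, 13.3% and 10.6% higher. Counts near these shares show no shift of a cell type. Above these shares lay the 3 of 7 stellate and 5 of 9 macrophage markers that fell to week 4. So did the 3 of 7 and 3 of 9 that fell from baseline to week 12. Of 9 lymphocyte markers 3, 0 and 1 fell and 1, 2 and 0 rose, and of 4 cholangiocyte markers 0 fell and 1, 1 and 0 rose. Of 4 neutrophil and blood markers 0, 2 and 2 fell and 2, 0 and 1 rose; their mean per array ran from 6.53 to 7.62 at baseline, from 6.73 to 7.59 at week 4 and from 6.33 to 7.10 at week 12. With the covariate 6, 2 and 5 endothelial, 2, 2 and 2 stellate, 0, 1 and 0 macrophage and 0, 2 and 2 neutrophil and blood markers were called lower. The shares of all tested genes called lower with it were 15.9%, 13.3% and 4.45%. Of 3 tested pancreas or kidney markers, organs in which GATM is also made, 1, 0 and 0 fell and 0 rose. The part of these cells in the results was not tested, and in bulk tissue fewer cells of a type and less RNA per cell cannot be told apart.

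Of the 26 member probe sets, 14 passed the filter on low values, which kept probe sets with a mean of at least 4.46. They stand for 7 genes: PSAT1 (2 probe sets), PHGDH (1), SHMT2 (3), GATM (3), GAMT (3), GNMT (1) and GLDC (1). The other 12 lay near the lower end of the array. The 2 probe sets of ASNS ran from 2.80 to 3.84 over the 36 arrays, the 3 of PSPH from 2.72 to 4.45, the 2 of SHMT1 from 3.53 to 4.13 and 5 further ones of GATM from 2.69 to 4.52. At such levels no change is read for ASNS, PSPH and SHMT1. When fitted without the filter, the pooled changes of all 12 probe sets between times lay between -0.18 and 0.12.

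With both arms pooled, the members did not move as a block. PSAT1 and GATM rose after baseline by their brightest probe sets, PHGDH and GAMT fell between week 4 and week 12, SHMT2 rose slightly, and the pooled changes of GNMT and GLDC did not pass in any interval. From baseline to week 4, limma called 5 of the 14 probe sets higher and 0 lower at an adjusted p under 0.05, where 16.7% of all 22385 tested probe sets were called higher and 19.8% lower. From week 4 to week 12 the calls were 2 higher and 5 lower (12.9% and 13.4% of all), and from baseline to week 12 they were 5 higher and 2 lower (11.1% and 14.7% of all). Counted by gene, with the brightest probe set standing for it, the calls were 3 higher and 0 lower, 0 higher and 2 lower, and 3 higher and 1 lower of 7 genes. The shares of all 13634 genes were 15% higher and 20.6% lower, 13.3% and 13.5%, and 10.6% and 16.2%, or 35.6%, 26.9% and 26.8% in either direction. Nothing about the set is read from these counts, since the choice of the genes may rest on the same intervals.

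**Figure D1:**
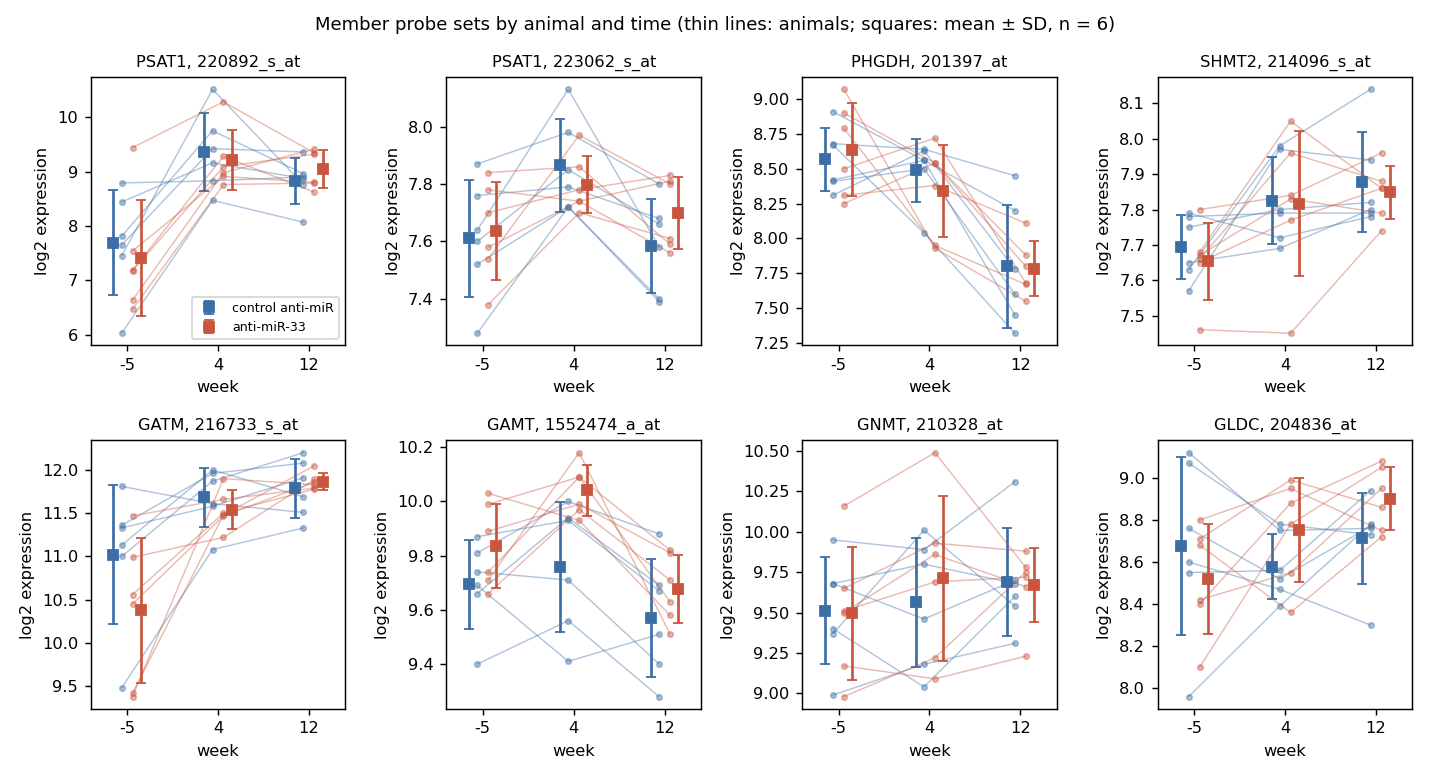
log2 expression of 8 member probe sets (vertical axes, each with its own range) at week -5, 4 and 12 (horizontal axes), with a thin line per animal and squares for the mean ± SD of the 6 animals of each arm. PSAT1 220892_s_at and GATM 216733_s_at stand lowest at week -5, PHGDH stands lowest at week 12, and the arms overlap in every panel.

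PHGDH, the first enzyme of serine synthesis, was lower at week 12 than at both earlier times in every animal. Under control anti-miR its probe set 201397_at ran from 8.31 to 8.91 (median 8.55) at baseline, from 8.04 to 8.64 (8.56) at week 4 and from 7.32 to 8.45 (7.69) at week 12. Under anti-miR-33 it ran from 8.25 to 9.07 (8.65), from 7.93 to 8.72 (8.46) and from 7.55 to 8.11 (7.74). The anti-miR-33 arrays of week 12 lay below all of their baseline arrays, while the control arrays of these times overlapped. How many of all probe sets separate in this way was not counted, and the difference between arms in this change was not called. From week 4 to week 12 PHGDH fell by 0.63 ± 0.11 (SE, 12 of 12 animals), and from baseline to week 12 by 0.81 ± 0.11, a level 1.75-fold lower. Baseline and week 4 did not differ beyond the spread, with a change of -0.19 ± 0.11 in which 6 animals were higher and 6 lower.

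The fall of PHGDH was nearly the same size with the 3′-5′ value as a covariate, at -0.62 ± 0.11 from week 4 and -0.78 ± 0.16 from baseline to week 12, both called. With GAPDH and ACTB as 2 covariates the former was -0.41 ± 0.27 and no longer called. Over the 36 arrays its Pearson r with the 3′-5′ value was 0.42, and 0.01 once the mean of each group was removed. Without any single animal the change from baseline to week 12 ran from -0.88 to -0.74. In control animals the change from baseline to week 12 was -0.77 ± 0.16 and in anti-miR-33 animals -0.86 ± 0.16, lower in 6 of 6 each.

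PSAT1, the aminotransferase of the next step, gave different pictures by its 2 probe sets. By 220892_s_at, control animals ran from 6.03 to 8.79 (median 7.73) at baseline, from 8.47 to 10.51 (9.29) at week 4 and from 8.07 to 9.36 (8.89) at week 12. Anti-miR-33 animals ran from 6.47 to 9.44 (7.19), from 8.76 to 10.28 (9.04) and from 8.62 to 9.41 (9.06). Baseline was the lowest time and the most scattered, with a range of over 2 units in both arms. By this probe set PSAT1 rose by 1.73 ± 0.24 (SE) from baseline to week 4, or 3.33-fold, in 12 of 12 animals. From baseline to week 12 it rose by 1.38 ± 0.24, or 2.60-fold, in 11 of 12. Week 4 and week 12 did not differ beyond the spread (-0.35 ± 0.24).

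The other PSAT1 probe set, 223062_s_at, moved far less. Control animals ran from 7.28 to 7.87 (median 7.62) at baseline, from 7.72 to 8.13 (7.82) at week 4 and from 7.39 to 7.80 (7.62) at week 12. Anti-miR-33 animals ran from 7.38 to 7.84 (7.64), from 7.70 to 7.97 (7.76) and from 7.56 to 7.83 (7.71). It rose by 0.21 ± 0.06 to week 4 and fell by 0.19 ± 0.06 from there to week 12, so that week 12 stood 0.02 ± 0.06 from baseline. Within animals the change to week 12 was larger by 220892_s_at in 11 of 12, by 1.36 ± 0.89 (SD, n = 12). The Pearson r between both probe sets over the 36 arrays was 0.44, and 0.27 with the mean of each group removed.

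The probe sets of PSAT1 also differed in their relation to the 3′-5′ value. Across all 36 arrays (3 per animal) the r of 220892_s_at with it was -0.92, and -0.91 with the mean of each group removed. For 223062_s_at these were -0.15 and 0.02. With the covariate, the rise of 220892_s_at from baseline to week 4 was 0.62 ± 0.14 in place of 1.73, and that from baseline to week 12 was 0.06 ± 0.15 in place of 1.38, no longer called. The change of 223062_s_at to week 4 was 0.23 ± 0.08 with the covariate, against 0.21 without it. With the covariate, week 12 stood below week 4 by both probe sets, at -0.55 ± 0.11 for 220892_s_at and -0.19 ± 0.06 for 223062_s_at, and both were called. Neither of these was called with GAPDH and ACTB as 2 covariates.

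**Figure D2:**
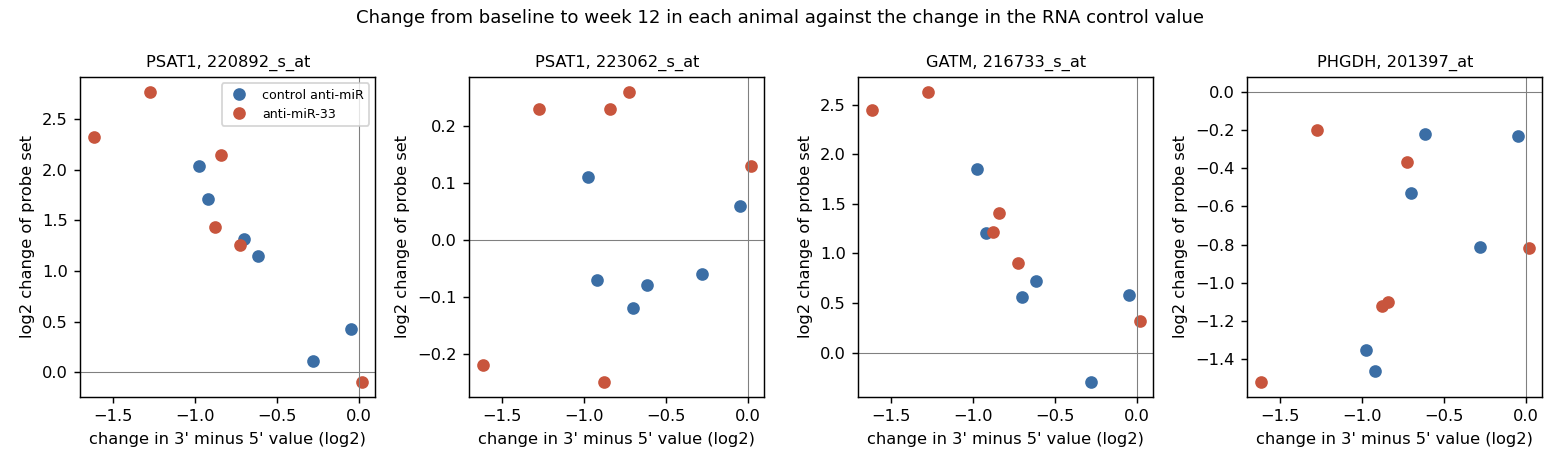
Change of 4 member probe sets from baseline to week 12 (vertical axes, log2) against the change in the 3′-5′ value (horizontal axes, log2), with a point for each of the 12 animals, coloured by arm. The points of PSAT1 220892_s_at and GATM 216733_s_at run from upper left to lower right (Pearson r of -0.92 and -0.87), those of PSAT1 223062_s_at and PHGDH show no such line (0.19 and 0.42), and all 12 PHGDH points lie below 0.

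Animal by animal, the change of PSAT1 220892_s_at had a Pearson r with the change in the 3′-5′ value of -0.89 from baseline to week 4, -0.93 from week 4 to week 12 and -0.92 from baseline to week 12 (n = 12). Spearman's rho was -0.89, -0.89 and -0.94. Without the 2 animals farthest from the median change in the 3′-5′ value, the r was -0.77, -0.83 and -0.93. For PSAT1 223062_s_at the r was 0.54, 0.14 and 0.19, and for PHGDH 0.28, -0.12 and 0.42. These relations are descriptions with no test, since the genes were chosen with the same changes in view. What sets the 3′-5′ value apart between times was not tested.

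GATM, which makes the creatine precursor, rose by its brightest probe set and differed between its 3 tested probe sets. By 216733_s_at, control animals ran from 9.48 to 11.81 (median 11.23) at baseline, from 11.08 to 12.00 (11.74) at week 4 and from 11.33 to 12.20 (11.80) at week 12. Anti-miR-33 animals ran from 9.38 to 11.47 (10.51), from 11.22 to 11.90 (11.49) and from 11.78 to 12.05 (11.85). In the anti-miR-33 arm the arrays of week 12 lay above all baseline arrays, and in the control arm they overlapped. The share of all probe sets that separate in this way was not counted. The difference between arms in this change was not called. The rise was 0.91 ± 0.18 (SE) to week 4 and 1.13 ± 0.18 to week 12, or 2.19-fold, in 11 of 12 animals each, and week 4 and week 12 did not differ beyond the spread (0.22 ± 0.18).

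By 203178_at the level of GATM was 8.89 ± 0.44 (SD, n = 12) at baseline, 8.93 ± 0.48 by week 4 and 9.22 ± 0.27 by week 12, and its changes of 0.05 ± 0.14 and 0.34 ± 0.14 (SE) from baseline did not pass. By 231686_at, whose mean lay just above the filter, it was 4.37 ± 0.34, 4.32 ± 0.28 and 4.82 ± 0.22. By this probe set GATM rose by 0.51 ± 0.10 from week 4 to week 12, in 12 of 12 animals, after a change of -0.05 ± 0.10 to week 4 (-0.37 ± 0.10 with the covariate, and then called lower). From baseline to week 12 the rise by 231686_at, from 4.37 to 4.82, was called too. All 3 probe sets thus had their highest mean at week 12, but they put the change in different intervals. The r between pairs of them over the 36 arrays ran from 0.47 to 0.68, and from 0.37 to 0.75 with the mean of each group removed.

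With the 3′-5′ covariate, the change of GATM from baseline to week 12 was 0.39 ± 0.19 by 216733_s_at, -0.03 ± 0.18 by 203178_at and 0.07 ± 0.11 by 231686_at, none of them called. The rise by 231686_at from week 4 to week 12 was 0.45 ± 0.08 with the covariate and was still called, but not with GAPDH and ACTB as 2 covariates. Across the 12 animals, the change of 216733_s_at had an r with the change in the 3′-5′ value of -0.62 from baseline to week 4, -0.44 from week 4 to week 12 and -0.87 from baseline to week 12 (rho of -0.70, -0.27 and -0.92). Without the 2 animals farthest from the median change these were -0.66, 0.02 and -0.85. With the animal as a fixed term, 203178_at was called too, with changes of 0.29 ± 0.10 from week 4 and 0.34 ± 0.10 from baseline to week 12. It was also called from baseline to week 12 without control replicate 4 (0.40 ± 0.14) or 5 (0.30 ± 0.09).

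GAMT, which completes creatine synthesis, fell between week 4 and week 12 by each of its 3 probe sets. By 1552474_a_at, control animals ran from 9.40 to 9.87 (median 9.72) at baseline, from 9.41 to 10.00 (9.82) at week 4 and from 9.28 to 9.88 (9.59) at week 12. Anti-miR-33 animals ran from 9.66 to 10.03 (9.82), from 9.93 to 10.18 (10.04) and from 9.51 to 9.82 (9.67). The anti-miR-33 arrays of week 12 lay below all of those of week 4, and the control arrays overlapped at all times. Here too the share of all probe sets that separate so was not counted, and the difference between arms in this change was not called. The fall was 0.28 ± 0.06 (SE, 11 of 12 animals) by this probe set, 0.33 ± 0.08 (11 of 12) by 205354_at and 0.23 ± 0.06 (10 of 12) by 1552473_at. With the covariate these were -0.29 ± 0.06, -0.31 ± 0.08 and -0.23 ± 0.06, all called. The averaged 3′-5′ value moved little in this interval, by a mean of -0.11. Per unit of it, 1552474_a_at, 205354_at and 1552473_at changed by only -0.11, 0.12 and 0.02, so this covariate could change the GAMT estimates little. With GAPDH and ACTB as 2 covariates no member probe set was called in this interval, where 0.304% of all were.

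Where GAMT stood at baseline relative to the later times depended on the probe set. By 205354_at it changed too little to pass from baseline to week 4 (0.01 ± 0.08) and was 0.32 ± 0.08 lower at week 12 than at baseline, in 12 of 12 animals. By 1552473_at it rose by 0.27 ± 0.06 to week 4 and returned to 0.04 ± 0.06 above baseline at week 12. By 1552474_a_at both changes from baseline missed the threshold (0.13 ± 0.06 and -0.14 ± 0.06), although the first was called without control replicate 4 (0.17 ± 0.06). The r between 1552474_a_at and 205354_at over the 36 arrays was 0.86, and those of both with 1552473_at were 0.34 and 0.21. With the mean of each group removed these were 0.82, -0.07 and -0.07.

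SHMT2, the mitochondrial enzyme that converts serine to glycine, changed little. By 214096_s_at its level was 7.67 ± 0.10 (SD, n = 12) at baseline, 7.82 ± 0.16 by week 4 and 7.86 ± 0.11 by week 12. The rise from baseline was 0.15 ± 0.05 (SE) to week 4 and 0.19 ± 0.05 to week 12, or 1.14-fold, in 11 of 12 animals, and with the covariate the latter was 0.28 ± 0.07. The call at week 4 was lost without anti-miR-33 replicate 2 (0.13) or 4 (0.13) or control replicate 3 (0.12) or 4 (0.12).

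By 214437_s_at, SHMT2 stood at -0.03 ± 0.10 from baseline at week 4 and rose by 0.42 ± 0.10 from there to week 12. This placed week 12 above baseline in 12 of 12 animals, by 0.39 ± 0.10, and by 0.21 ± 0.13 and not called with the covariate. By 214095_at none of its changes, at most 0.10 ± 0.07, passed. The r between the 3 probe sets over the 36 arrays ran from 0.25 to 0.57, and from 0.06 to 0.63 with the mean of each group removed.

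GNMT and GLDC, which spend glycine, did not pass the test between any of the times with both arms pooled. GNMT (210328_at) ran from 8.98 to 10.16 (median 9.51) at baseline, from 9.04 to 10.49 (9.75) at week 4 and from 9.23 to 10.31 (9.69) at week 12 over both arms. Its change from baseline to week 12 was 0.18 ± 0.12 (SE), and -0.30 ± 0.14 with the covariate. GLDC (204836_at) ran from 7.96 to 9.12 (8.64), from 8.36 to 8.99 (8.66) and from 8.30 to 9.08 (8.78). Its change to week 12 was 0.21 ± 0.09, and -0.05 ± 0.12 with the covariate. In the anti-miR-33 arm alone this change was 0.38 ± 0.13 (5 of 6 animals) and was called, where 6.65% of all genes were called higher, and it was 0.07 ± 0.15 and not called with the covariate. In the control arm alone it was 0.04 ± 0.13, where 2.66% of all genes were called higher. Both genes thus lost the direction of their change when the 3′-5′ value was taken into account, and their r with it over the 36 arrays was -0.59 and -0.53. Within animals (n = 12), the change of GNMT had an r with the change in the 3′-5′ value of -0.70 from baseline to week 4, -0.87 from week 4 to week 12 and -0.59 from baseline to week 12 (rho of -0.45, -0.87 and -0.62). Without the 2 animals farthest from the median change these were -0.32, -0.74 and -0.75.

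**Figure D3:**
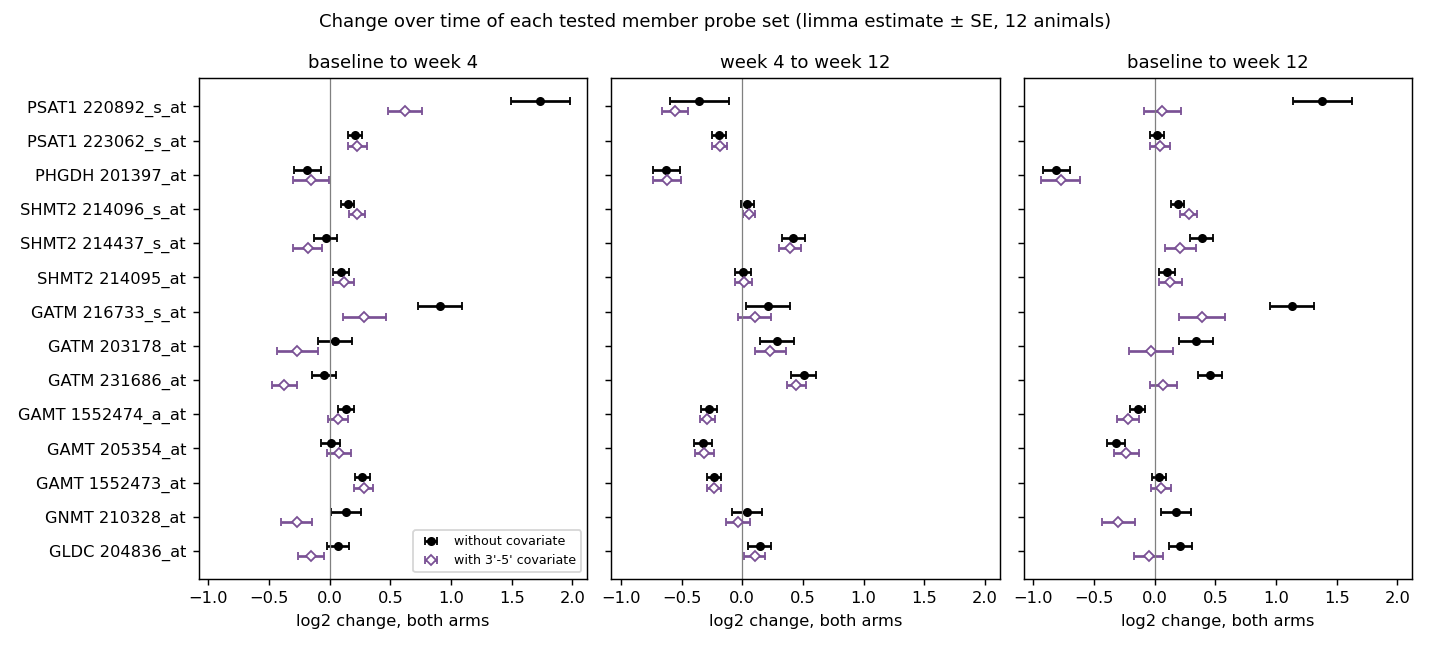
Change in both arms together (horizontal axes, log2, limma estimate ± SE, 12 animals) of each of the 14 tested member probe sets (rows) over 3 intervals, without the covariate (filled circles) and with the 3′-5′ value as covariate (open diamonds). The largest shift between the symbols is that of PSAT1 220892_s_at from baseline to week 12 (1.38 to 0.06), while those of PHGDH and GAMT from week 4 to week 12 lie almost on top of each other. In that last interval the 3′-5′ value itself moved little (mean change -0.11).

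With the 3′-5′ covariate, 5 of the 14 probe sets were called from baseline to week 4, 4 higher and 1 lower (25.2% of all tested probe sets), 8 from week 4 to week 12 (26.4% of all) and 2 from baseline to week 12 (4.8% of all). The 2 were PHGDH, lower, and SHMT2 214096_s_at, higher. The GAPDH and ACTB differences were also entered as 2 separate covariates, an alternative chosen after seeing the data. The errors then grew, and 0 member probe sets were called from baseline to week 4 (0.943% of all) or from week 4 to week 12 (0.304% of all). Since the 2 values lay well apart only at week 4, this fit can hardly tell week 4 from its covariates. The calls lost in these intervals therefore say little about the changes. With the 2 covariates PSAT1 220892_s_at stood at 0.50 ± 0.26 from baseline to week 4. From baseline to week 12 PHGDH (-0.76 ± 0.16) and SHMT2 214096_s_at (0.28 ± 0.07) were called with them too, where 5.48% of all probe sets were.

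The arms were also compared, with the same limit from the choice of genes as for the changes over time. No member passed the test at any time. Before treatment, limma called 0 of the 14 probe sets (0% of all tested probe sets; 882 of 22385 had an unadjusted p under 0.05). At week 4 it called 0 of 14 (0% of all; 1137 unadjusted), and at week 12 0 of 14 (0.00447% of all, which is 1 probe set; 671 unadjusted). Among the differences between arms in the change from baseline to week 4, week 4 to week 12 and baseline to week 12, 0 of 14 were called (0% of all in each; 766, 810 and 505 unadjusted).

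GAMT came closest. At week 4 its probe set 1552474_a_at was 0.28 ± 0.10 (SE) higher under anti-miR-33, with a 95% interval of 0.09 to 0.48, an unadjusted p of 0.00614 and a limma adjusted p of 0.930. The anti-miR-33 arrays, from 9.93 to 10.18, overlapped with the control arrays, from 9.41 to 10.00. A difference of the same sign stood before treatment, at 0.14 ± 0.10 by 1552474_a_at and 0.26 ± 0.11 by 205354_at (limma adjusted p = 0.999 each). By 1552473_at the means were nearly level at baseline, 7.44 under anti-miR-33 and 7.43 under control, and 7.78 and 7.63 at week 4. By 205354_at the means at week 4 were 9.642 under anti-miR-33 and 9.395 under control. The difference between arms in the change of 1552474_a_at from baseline to week 4 was 0.14 ± 0.13.

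For GATM 216733_s_at the arms were 0.64 ± 0.28 apart at baseline, lower in the animals later given anti-miR-33 (interval -1.20 to -0.08, limma adjusted p = 0.999), and 0.08 ± 0.28 apart at week 12. From baseline to week 12 it changed by 1.49 ± 0.26 in the anti-miR-33 arm and by 0.77 ± 0.26 in the control arm, and the difference of 0.72 ± 0.36 had an interval of -0.02 to 1.46 and a limma adjusted p of 0.999. With the covariate that difference was 0.42 ± 0.27. Without a single animal it ran from 0.49 (without anti-miR-33 replicate 6) to 0.95 (without anti-miR-33 replicate 1). GLDC differed between arms in the same change by 0.35 ± 0.19 (-0.03 to 0.73), and PSAT1 220892_s_at by 0.51 ± 0.49 (-0.48 to 1.5), which became -0.02 ± 0.22 with the covariate.

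The intervals show what sizes the arrays allowed at week 12. For PHGDH the difference between arms was -0.02, with an interval of -0.36 to 0.33, and for SHMT2 214096_s_at it was -0.03, with -0.19 to 0.13. For GNMT it was -0.02 (-0.41 to 0.37), for GAMT 1552474_a_at 0.11 (-0.09 to 0.30) and for GLDC 0.19 (-0.10 to 0.48). PSAT1 220892_s_at, at 0.23 (-0.53 to 0.98), and GATM 216733_s_at, at 0.08 (-0.48 to 0.64), had the widest intervals of the 7 genes.

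**Figure D4:**
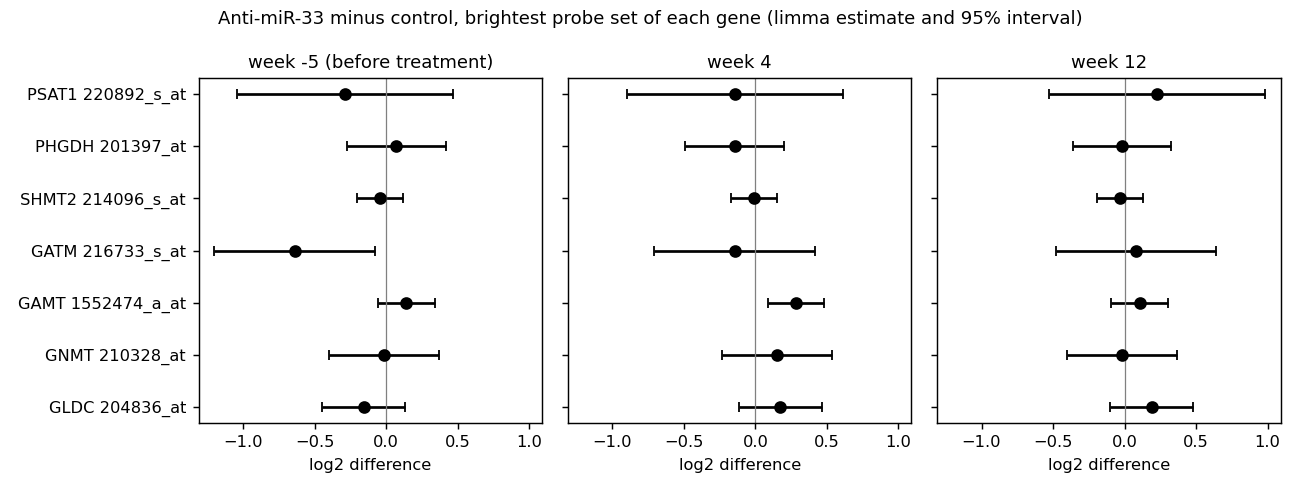
Difference between arms (horizontal axes, anti-miR-33 minus control, log2, limma estimate with its 95% interval) of the brightest probe set of each of the 7 tested genes (rows) at week -5, 4 and 12. The intervals of week 12 all include 0, and those of GATM at week -5 (-1.20 to -0.08) and GAMT at week 4 (0.09 to 0.48) do not, though neither passed after adjustment over all probe sets.

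The genes around these enzymes were counted in fixed lists, each gene by its brightest probe set, against medians of -0.01, 0.01 and -0.01 over all tested genes in the 3 intervals. Of all tested genes, 15%, 13.3% and 10.6% rose and 20.6%, 13.5% and 16.2% fell in these intervals, and with the covariate 9.22%, 13.3% and 0.777% were called higher and 15.9%, 13.3% and 4.45% lower. From week 4 to week 12 the covariate itself moved little, and with GAPDH and ACTB as 2 covariates 0.345% of all tested genes were called. The list of ATF4 and the amino acid response, with transporters and tRNA synthetases that ATF4 drives, had 38 tested genes. From baseline to week 4, 4 of them rose and 10 fell (median -0.14), from week 4 to week 12, 5 rose and 3 fell (0.06), and from baseline to week 12, 1 rose and 6 fell (-0.02). With the covariate the calls were 2 higher and 6 lower, 6 and 3, and 0 and 2. ATF4 itself fell by 0.45 ± 0.08 (SE) from baseline to week 12, and stood at -0.30 ± 0.11 and was not called with the covariate. The synthetases GARS1 and CARS1 fell by 0.28 ± 0.06 and 0.33 ± 0.08 (-0.36 ± 0.08, called, and -0.25 ± 0.11, not called, with the covariate). The 1 gene that rose was VLDLR, the very low density lipoprotein receptor (1.00 ± 0.18, and 0.49 ± 0.22 and not called with the covariate). Of the members that ATF4 is known to drive, PHGDH was lower at week 12 than at baseline and PSAT1 was not, and PSPH and ASNS were too low to follow.

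Folate enzymes, which carry the carbon that SHMT2 and GLDC release, had 10 tested genes. Of these 2 rose and 0 fell to week 4, 2 rose and 2 fell from week 4 to week 12, and 2 rose and 1 fell from baseline to week 12. Under the covariate the calls were 0 and 0, 2 and 2, and 0 and 1. FTCD, which feeds histidine carbon into folate, fell by 0.33 ± 0.08 from week 4 to week 12, and TYMS, thymidylate synthase, rose by 0.44 ± 0.11 (-0.32 ± 0.08 and 0.39 ± 0.10 with the covariate, both called). ALDH1L1, which releases the folate carbon as carbon dioxide, fell by 0.21 ± 0.05 from baseline to week 12, and by 0.24 ± 0.07 with the covariate.

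Among 21 tested genes of methionine and transsulfuration, which use serine to make cysteine, 5 rose and 6 fell to week 4, 4 rose and 1 fell from there to week 12, and 5 rose and 2 fell from baseline to week 12. With the covariate the calls were 0 higher and 3 lower, 3 and 1, and 0 and 0. MAT1A, the hepatic synthase of S-adenosylmethionine, rose by 0.31 ± 0.06 from baseline to week 12, and stood at 0.24 ± 0.09 and was not called with the covariate. CBS, which joins serine to homocysteine, fell by 0.33 ± 0.07 from week 4 to week 12, and by 0.33 ± 0.08 with the covariate. CTH, which releases cysteine, rose by 0.73 ± 0.17 from baseline to week 12 but stood at -0.11 ± 0.14 with the covariate, and GCLM, of glutathione synthesis, rose by 0.57 ± 0.10 and stood at 0.14 ± 0.11.

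The list of glycine and serine use had 18 tested genes, of which 2 rose and 2 fell to week 4, 3 rose and 4 fell from week 4 to week 12, and 3 rose and 2 fell from baseline to week 12. When the covariate entered, the calls were 1 higher and 3 lower, 4 and 3, and 0 and 0. AGXT, which makes glycine from glyoxylate, rose by 0.33 ± 0.07 to week 4 and fell by 0.50 ± 0.07 from week 4 to week 12, and HAO1, which makes the glyoxylate, went the other way (-0.28 ± 0.08 and 0.44 ± 0.08). With the covariate these were 0.35 ± 0.09 and -0.49 ± 0.07 for AGXT and -0.59 ± 0.07 and 0.39 ± 0.05 for HAO1, all called. ALAS1, which uses glycine for haem, rose by 0.61 ± 0.12 from baseline to week 12, and stood at 0.54 ± 0.17 and was not called with the covariate.

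In the list of creatine, arginine and the urea cycle, with 14 tested genes, 1 rose and 1 fell to week 4, 4 rose and 1 fell from week 4 to week 12, and 2 rose and 2 fell from baseline to week 12. The calls with the covariate were 1 higher and 1 lower, 4 and 1, and 0 and 1. From week 4 to week 12 the urea cycle genes NAGS (0.31 ± 0.08), OTC (0.25 ± 0.07) and CPS1 (0.23 ± 0.07) rose, and OAT, the ornithine aminotransferase, fell by 0.34 ± 0.10. All 4 were called in the same direction with the covariate. In this interval GATM, which takes arginine, had rises by 1 of 3 probe sets and GAMT falls by 3 of 3.

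Enzymes of amino acid breakdown had 23 tested genes, of which 6 rose and 1 fell to week 4, 3 rose and 5 fell from week 4 to week 12, and 6 rose and 3 fell from baseline to week 12. With the covariate the calls were 2 higher and 0 lower, 3 and 5, and 0 and 1. From week 4 to week 12 PRODH2 (-0.33 ± 0.07), the transaminase GPT (-0.33 ± 0.07) and BCAT2 of branched-chain amino acids (-0.35 ± 0.07) fell, and all 3 were called lower with the covariate. Of 8 tested genes expressed towards the portal vein, 0 rose and 1 fell, 2 rose and 0 fell, and 1 rose and 1 fell in the 3 intervals. Of 11 expressed towards the central vein, 4 rose and 1 fell, 0 rose and 3 fell, and 4 rose and 2 fell. With the covariate the calls were 0 and 0, 2 and 0, and 0 and 0 towards the portal vein, and 2 higher and 0 lower, 0 and 3, and 0 and 0 towards the central vein. Between the arms, 0 genes of these 8 lists were called at any of the 3 times.

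For each tested member the 3 other genes with the most similar pattern over the 36 arrays were named, as a description. PSAT1 220892_s_at ran with CMAHP (r = 0.94), SELENOT (0.93) and TMEM230 (0.92), which themselves had an r of -0.93, -0.96 and -0.96 with the 3′-5′ value. GATM 216733_s_at ran with ITM2B (0.93), IGF1 (0.93) and ALDH1A1 (0.93), whose r with that value was -0.90, -0.80 and -0.91. PHGDH ran with VPS28 (0.90), DNAJC7 (0.84) and ADRM1 (0.83), with 0.46, 0.46 and 0.57. The nearest gene to GAMT was TIMM13 (0.78), to GNMT SELENBP1 (0.81), to GLDC UBE2K (0.79) and to SHMT2 OAS1 (0.67).

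Among the members themselves, the pair of different genes most alike was PSAT1 220892_s_at and GATM 216733_s_at, with an r of 0.87 over the 36 arrays and 0.83 with the mean of each group removed. PHGDH and PSAT1 220892_s_at, consecutive enzymes of one pathway, had an r of -0.26, and PHGDH and PSAT1 223062_s_at had 0.25. PHGDH and GAMT 205354_at had an r of 0.65, and 0.54 with the mean of each group removed.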

How the data were processed

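The authors deposited a table of log2 expression values of 36 HG-U133 Plus 2.0 arrays, made with RMA per the submitters' processing notes (background correction, normalization between arrays and summary of probes); its version is not given in the sources used here. Array medians lay between 4.42 and 4.51, so a shift shared by most transcripts would not be seen. The number of arrays limits the precision. Gene names came from the platform annotation, which can be old; 41091 probe sets had 1 symbol.

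A model of 6 groups, in which the animal was a random block (correlation 0.141), was fitted to all arrays with limma 3.58.1 under R 4.3.3. Two-sided p-values were adjusted by Benjamini-Hochberg, separately for every comparison, over the 22385 probe sets with 1 symbol and a mean of at least 4.459, at a threshold of 0.05. The script was tested on simulated data. Animals come from the labels' identifiers; 12 of 12 animals' arrays correlated more with each other than with other animals', after removing group means. The covariate is the 3′ minus the 5′ control probe set, averaged over GAPDH and ACTB. The brightest probe set stood for a gene, the list genes named were among those of smallest p, and likeness took the 3 highest r. Members and lists were chosen with earlier results of these data known.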

Additional observations from a re-analysis of the deposited data

Results flagged for a closer look

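Of 84 sets of 6 arrays (a member probe set in 1 arm at 1 time), 8 held an array far from the other 5 by Dixon's test at the 95% level, which chance gives in about 1 in 20 sets. PSAT1 220892_s_at was high in the anti-miR-33 animal of replicate 1 both at baseline (9.44, others 6.47 to 7.54) and at week 4 (10.28, others 8.76 to 9.28). GATM was low in control replicate 5, by 216733_s_at at baseline (9.48, others 11.0 to 11.81) and by 203178_at at week 4 (7.52, others 8.99 to 9.39). PHGDH was low on the same week 4 array of control replicate 5 (8.04, others 8.50 to 8.64). GLDC stood at 8.30 at week 12 in control replicate 3 (others 8.73 to 8.94), and GNMT at 9.23 at week 12 in anti-miR-33 replicate 4 (others 9.66 to 9.88). SHMT2 214095_at stood at 6.18 at week 4 in anti-miR-33 replicate 6 (others 5.65 to 5.76). The causes were not tested.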

How the results depend on the processing

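Without the filter, with arrays centred on their medians or without the animal block, all 126 values (14 probe sets in 9 comparisons) kept their direction and side of the threshold, as did all 63 values of the 7 brightest probe sets in a fit of 1 probe set per gene. With the animal as a fixed replicate block, 82 of 84 did, and GATM 203178_at became called (0.29 from week 4 and 0.34 from baseline to week 12). Over the 12 fits without 1 animal, 1505 of 1512 did, 0 reversed, and the genes called from baseline to week 4 ran from 2 to 3. The called genes numbered 3, 2 and 4 from baseline to week 4, week 4 to week 12 and baseline to week 12. With the second brightest probe set they were 1 and 4 in the first and second of these intervals. In the last, PSAT1 and GATM were then no longer called, and GAMT, by 205354_at, was called lower. With the 3′-5′ covariate the called genes were 2 in the last interval, and with GAPDH and ACTB as 2 covariates 0, 0 and 2.

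Some signs reversed with the covariate, or with 2 covariates, and the cause was not tested. PSAT1 220892_s_at in the arms' difference in change from baseline to week 12 went from 0.51 to -0.018 and -0.037. GNMT went to -0.27 and -0.65 at week 4, and to -0.30 and -0.27 from baseline to week 12. GLDC went to -0.052 and -0.083, and GATM 203178_at to -0.033 and -0.088, from baseline to week 12. With 2 covariates from week 4 to week 12, SHMT2 214437_s_at stood at -0.027, GATM 216733_s_at at -0.27, GATM 203178_at at -0.44 and GLDC at -0.28. These 2 covariates nearly mark week 4, so the estimates for this interval are imprecise. Signals of ASNS, PSPH and SHMT1 were too low to follow. Each animal gave 1 array per time, so technical spread was not measured apart.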
